A study of Mus musculus with 12 samples.

Results

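The genes described here are the chemokines and chemokine receptors other than the CXC ligands and receptor that draw in neutrophils. They were taken by symbol from the expression table as every gene named Ccl, Cxcl, Ccr or Cxcr with a number, every Cx3c gene and Xcl1 and Xcr1, without Cxcl1, Cxcl2, Cxcl3, Cxcl5 and Cxcr2, and with a mean of at least 0.1 FPKM over 12 mice. By symbol 51 of the 17734 measured genes matched and 44 of them, 31 ligands and 13 receptors, reached the mean. FPKM is the number of sequenced fragments divided by transcript length and by the depth of the library, so levels of different genes are compared per length. The 7 genes under the limit were Ccl1, which came nearest to it with a mean of 0.0983 FPKM, and Cxcr1, Ccr4, Ccr8, Ccr3, Ccr1l1 and Cxcl15. The lowest means above it were 0.1767 FPKM for Xcr1 and 0.1775 FPKM for Ccr6.

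Gene expression was profiled in bulk tissue of 12 C57BL/6 mice in 4 groups of 3, which the methods describe as adult males. Normal mice drank water, and colitis mice received dextran sulfate sodium (DSS), a sulfated polymer that injures the bowel lining, in their drinking water for 7 days. A group of normal mice and a group of colitis mice received berberine (BBR), a plant alkaloid, by gavage, for 6 days by the sample description, and are called normal mice receiving BBR and, after DSS, colitis mice receiving BBR. The tissue is called colorectum in the labels and rectum in the methods, and 8 of 8 listed markers of colonic epithelium and 3 of 3 Hox genes of the distal bowel were measured, none of them at 0 in every mouse. DSS colitis is a chemical injury that needs no lymphocytes to start, and a bulk sample mixes epithelium, muscle and immune cells, so that fewer cells of a type and less RNA per cell cannot be told apart.

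Chemokines are small secreted proteins that bind G protein-coupled receptors on leukocytes and guide their migration. Ccl2, Ccl7 and Ccl12 draw monocytes from blood into tissue through Ccr2, Cxcl9 and Cxcl10 are made under interferon gamma and attract T cells through Cxcr3, and Ccl19, Ccl21 and Cxcl13 arrange lymphocytes in lymphoid tissue. In the gut Ccl25, Ccl28 and Ccl20 are made by the epithelium and serve the homing of lymphocytes, and Cxcl12 is a ligand of stromal cells.

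The 5 genes whose change in colitis passed the adjusted limit given below were Ccl8, Ccl2, Ccl7, Cxcl13 and Cxcl9. The RefSeq promoter table held an entry for 31 of the 44 genes and for 3 of these 5, Ccl8, Cxcl9 and Cxcl13. Their 250 bases before the transcription start are printed because these are the genes that changed, 5′ to 3′ on the strand of the gene, with the letters TATAAA in capitals where a search found them.
Ccl8 promoter, GRCm38.p6 chr11:82114935-82115184, plus strand: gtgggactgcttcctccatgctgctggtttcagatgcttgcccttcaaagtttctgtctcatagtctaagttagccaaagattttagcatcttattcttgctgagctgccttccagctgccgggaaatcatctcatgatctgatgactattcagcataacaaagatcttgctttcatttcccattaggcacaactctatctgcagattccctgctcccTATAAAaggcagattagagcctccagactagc
Cxcl13 promoter, GRCm38.p6 chr5:95956689-95956938, plus strand: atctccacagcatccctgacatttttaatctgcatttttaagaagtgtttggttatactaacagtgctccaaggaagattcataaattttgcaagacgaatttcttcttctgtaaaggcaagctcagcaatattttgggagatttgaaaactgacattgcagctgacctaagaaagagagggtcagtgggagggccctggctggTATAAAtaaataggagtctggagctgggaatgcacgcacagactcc
Cxcl9 promoter, GRCm38.p6 chr5:92328080-92328329, minus strand: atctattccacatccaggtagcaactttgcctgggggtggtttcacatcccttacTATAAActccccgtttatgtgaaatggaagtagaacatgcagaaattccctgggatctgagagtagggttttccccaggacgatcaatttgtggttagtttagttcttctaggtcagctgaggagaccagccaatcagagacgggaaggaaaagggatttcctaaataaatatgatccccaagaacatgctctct
The TATA letters stood 32 to 27 bases before the start of Ccl8, 46 to 41 bases before that of Cxcl13 and 195 to 190 bases before that of Cxcl9. On either strand, TATAAA was found in the 250 bases of 10 of 31 members (32.3%) and of 14.3% of 27025 genes. The kappaB consensus was found in 5 members (16.1%) and 8.2% of genes, and the gamma-activated sequence TTCNNNGAA in 3 members (9.7%) and 8.1% of genes. Neither of these 2 patterns was in the printed sequences, which says only that these letters are not in this window, and a match is no evidence of a bound site.

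The mice numbered 4 stood apart from the others in every group, and nothing in the labels says why. These 4 mice, 1 in each group, had column totals of 482194 to 504337 FPKM against 696286 to 765876 FPKM in the 8 mice numbered 1 to 3, and 872 to 1086 genes at 0 against 1332 to 1926. Read counts were not used here, and the depth was inferred from the steps between low values. By these steps 3 reads on a transcript of 800 bases had a worth of 0.344 to 0.396 FPKM in mice numbered 1 to 3 but 0.207 to 0.228 FPKM where the number was 4. On 2500 bases the respective worths were 0.084 to 0.091 FPKM and 0.06 to 0.072 FPKM. On a transcript of the given length, a value under its level rests on fewer than 3 reads, which counts sampling error only. The level is higher for a shorter transcript, such as that of Ccl12 with 537 bases. Counts of calls in colitis and with BBR in colitis are therefore also given with a term for the mice numbered 4 and in the other 8 mice alone. Colitis mouse 2 was the highest of its group for 35 of 44 members, against 26.3% of all tested genes, and the highest of all 12 mice for 23 of them. The median member stood 0.43, 1.78 and 0.11 log2 units above its mean in normal mice in colitis mice 1, 2 and 4.

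The mice numbered 4 had lower values for short transcripts. The median difference between these mice and the others of their groups was -0.72 log2 units over the 31 ligands, 0.06 over the 13 receptors and 0.23 over all tested genes. The ligands had a median longest transcript of 1058 bases and the receptors 2833 bases. Each group holds 1 such mouse, and the cause of the difference was not tested.

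**Figure D1:**
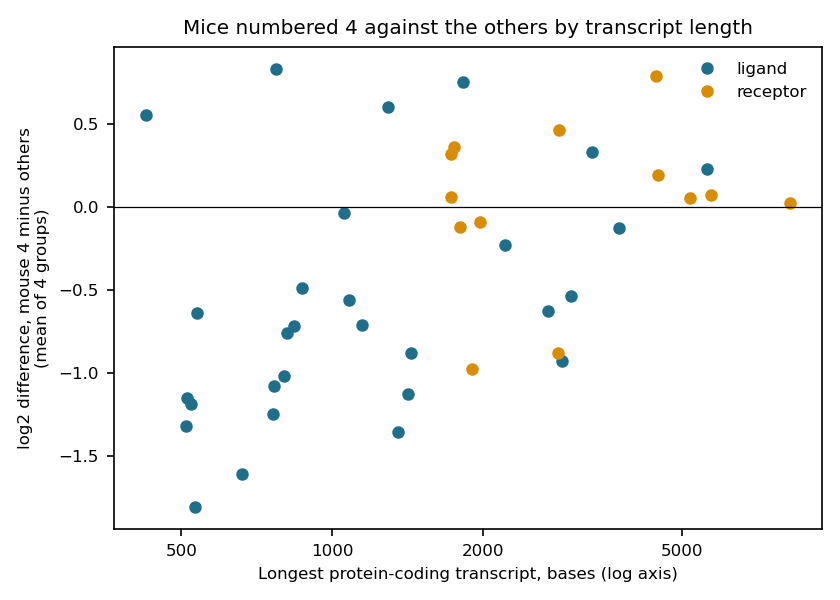
Difference of the mouse numbered 4 from the others of its group, in log2(FPKM + 0.1) and averaged over the 4 groups, against the longest protein-coding transcript in bases on a log axis, with 1 point per ligand (blue, 29 with a length) or receptor (orange, 13). Most ligands lie below 0, with a median of -0.72 over all 31, and the receptors lie around 0.

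**Figure D2:**
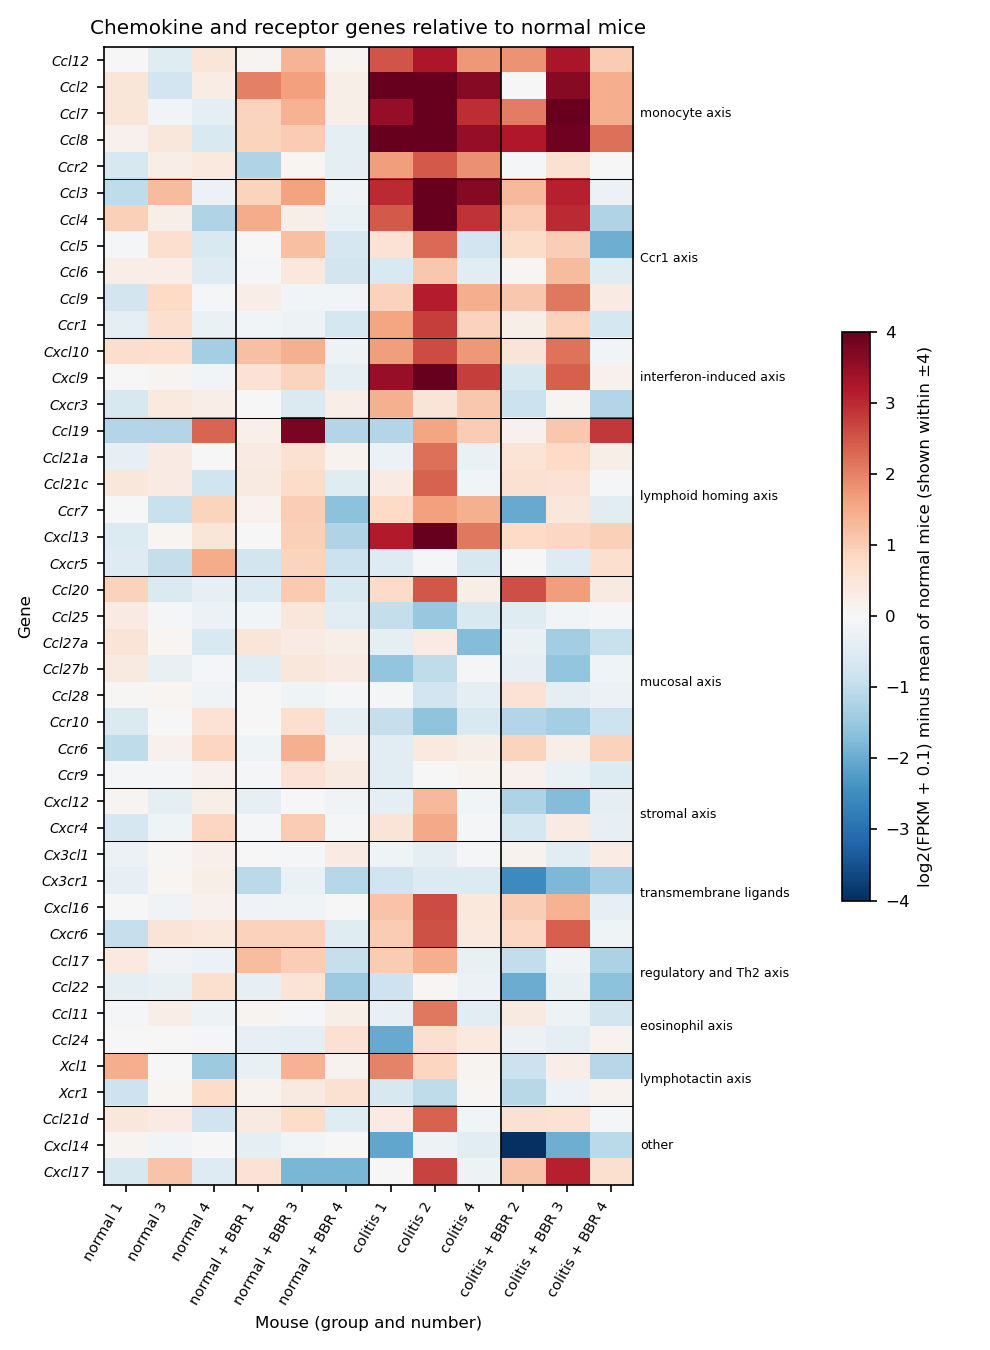
Level of 43 of the 44 genes in each of the 12 mice as log2(FPKM + 0.1) minus the mean of the 3 normal mice, with genes in rows grouped by role, mice in columns, red above and blue below the normal mean, and colours ending at 4 log2 units. The monocyte axis is red in all 3 colitis mice, and colitis mouse 2 has the highest value of all 12 mice in 22 rows.

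In normal mice the ligands were far more abundant than their receptors. The 31 ligands summed to 450.38 to 593.36 FPKM and the 13 receptors to 6.74 to 13.52 FPKM in normal mice. Ccl6, a CC ligand made by myeloid cells that binds Ccr1, was the highest ligand in 11 of 12 mice, at 234.78, 234.69 and 136.71 FPKM in normal mice 1, 3 and 4. The exception was colitis mouse 2, where Ccl21a, the ligand of Ccr7 made by lymphatic vessels and lymphoid stroma, reached 465.95 FPKM. Ccl28 had a mean of 66.3 FPKM in normal mice (SD 5.74, n = 3) and Cx3cl1, the membrane-bound fractalkine, 48.7 FPKM (SD 7.35, n = 3). The highest receptor means in normal mice were 2.36 FPKM for Cx3cr1, 1.89 FPKM for Ccr1 and 1.78 FPKM for Cxcr4, the receptor of Cxcl12. In colitis mice ligands summed to 516.18 to 1813.03 FPKM and receptors to 14.9 to 31.31 FPKM, and the receptor sums did not overlap those of normal mice. In colitis mice receiving BBR the receptor sums were 6.16 to 11.03 FPKM, within or just below the range of normal mice.

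Colitis mice were compared with normal mice to ask which of these genes DSS colitis affects. Ccl8, Ccl2 and Ccl7 of the monocyte axis, Cxcl9 and Cxcl13 rose in colitis mice, by 3.42 to 4.66 on the log2(FPKM + 0.1) scale, and no member was lower past the adjusted limit. Of the 44 genes 5 passed an adjusted p of 0.05 and all 5 were higher, against 1.08% of the 15315 tested genes in either direction and 0.653% higher. At the limit of the study, an unadjusted P of at most 0.05, 14 members were higher and 2 lower, against 5.56% and 15.9% of all tested genes. Under quantile normalization these counts were 16 and 0, and with each mouse centred on its median 16 and 1. Of all tested genes 3009 and 2687 passed this limit in these fits, in either direction, against 3280. In all, 31 members had a higher and 13 a lower mean in colitis, where 26.2% of all tested genes were higher and 73.7% lower. The median log2 fold change was 0.78 over the members and -0.32 over all tested genes. The latter shifted to -0.05 with quantile normalization and 0.02 with centring, while the median of the members was 1.15 and 1.12. The tests are from limma on log2(FPKM + 0.1), adjusted over all tested genes, and this scale understates changes of genes with low values. With 3 mice in each group, exact permutation of 1 gene (two-sided) gives p = 0.1 at the lowest.

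The monocyte axis holds Ccr2, the receptor that monocytes need to leave the bone marrow, its ligands Ccl2, Ccl7 and Ccl12, and Ccl8. Ccl8, a ligand made by tissue macrophages, was at 4.42, 5.39 and 2.53 FPKM in normal mice and at 87.29, 249.4 and 45.66 FPKM in colitis mice. All 3 colitis mice were far above the normal mice, and Ccl8 rose by 4.63 (SE 0.62, limma adjusted p = 0.0106). Ccl2, the main monocyte attractant, was at 0.73, 0.25 and 0.63 FPKM in normal mice and 14.94, 30.37 and 7.32 FPKM in colitis mice, a rise of 4.66 (SE 0.84, limma adjusted p = 0.0289). The groups did not overlap, and the lowest colitis mouse had 7.32 FPKM against a highest normal value of 0.73 FPKM. The 0.25 FPKM of normal mouse 3 lay under the worth of 3 reads on 800 bases in that mouse, 0.381 FPKM. Ccl7, another Ccr2 ligand, was at 1.36, 0.88 and 0.71 FPKM in normal mice and 11.92, 17.36 and 8.11 FPKM in colitis mice, a rise of 3.51 (SE 0.65, limma adjusted p = 0.0312). These 3 ligands lie in a run of neighbouring genes on chromosome 11, in the RefSeq order Ccl2, Ccl7, Ccl11, Ccl12 and Ccl8.

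The other genes of the axis and of the run were less far from normal. Ccl12, a mouse Ccr2 ligand, was at 0.75, 0.51 and 1.09 FPKM in normal mice and 4.82, 7.9 and 2.71 FPKM in colitis mice, without overlap, a log2 fold change of 2.5 (SE 0.59, limma adjusted p = 0.0647). Ccr2 was at 0.58, 1.16 and 1.28 FPKM in normal mice and 3.24, 5.67 and 3.63 FPKM in colitis mice, also without overlap, a log2 fold change of 1.98 (SE 0.42, limma adjusted p = 0.0515). Neither passed the adjusted limit, but both did with a term for the mice numbered 4, at limma adjusted p = 0.0259 for Ccl12 and 0.0235 for Ccr2. Ccl11, the eosinophil attractant eotaxin that sits in the middle of the run, overlapped between the groups, at 9.33 to 12.82 FPKM in normal mice and 8.62, 46.52 and 7.79 FPKM in colitis mice, where mouse 2 alone was high.

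Cxcl9 and Cxcl10 are neighbours on chromosome 5 and share the receptor Cxcr3. Cxcl9 was at 0.57, 0.62 and 0.53 FPKM in normal mice and 7.39, 31.99 and 4.47 FPKM in colitis mice, a rise of 3.94 (SE 0.80, limma adjusted p = 0.043). Its values hardly varied among normal mice and spread widely among colitis mice. Cxcl10 was at 4.94, 4.92 and 1.11 FPKM in normal mice and 9.81, 19.11 and 10.39 FPKM in colitis mice, a log2 fold change of 2.01 (SE 0.69, limma adjusted p = 0.141). The groups did not overlap, the normal mouse numbered 4 was well below the other normal mice, and with a term for the mice numbered 4 the limma adjusted p was 0.0274. Cxcr3 was at 0.19, 0.49 and 0.44 FPKM in normal mice and 1.11, 0.54 and 0.85 FPKM in colitis mice, which did not overlap but nearly met at 0.49 and 0.54 FPKM.

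Cxcl13, the attractant of B cells through Cxcr5, was the ligand of the lymphoid homing axis that rose. It was at 2.85, 4.36 and 5.82 FPKM in normal mice and 38.61, 134.64 and 18.36 FPKM in colitis mice, a rise of 3.42 (SE 0.66, limma adjusted p = 0.0362). Its receptor Cxcr5 was at 0.14, 0.08 and 0.86 FPKM in normal mice and 0.14, 0.23 and 0.12 FPKM in colitis mice, with overlap. The summed level of 7 B and plasma cell markers was 263.6 to 337.49 FPKM in normal mice and 78.82 to 156.28 FPKM in colitis mice. Of the 7, 6 had a lower mean in colitis, as had 73.7% of all tested genes. The part of this shift in the Cxcl13 result was not tested. Ccl21a, at 79.17, 124.75 and 101.94 FPKM in normal mice, was at 84.55 and 84.13 FPKM in colitis mice 1 and 4 and at 465.95 FPKM in colitis mouse 2. Ccl21c and Ccl21d had identical values in every mouse, so these near-identical copies were not separated by the counting and stand for 1 measurement, and Ccl27a and Ccl27b are close copies too. Ccl19 was at 0 in normal mice 1 and 3 and at 1.02 FPKM in normal mouse 4, and Ccr7 at 0.12 to 0.65 FPKM in normal mice and 0.61 to 1.18 FPKM in colitis mice.

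**Figure D3:**
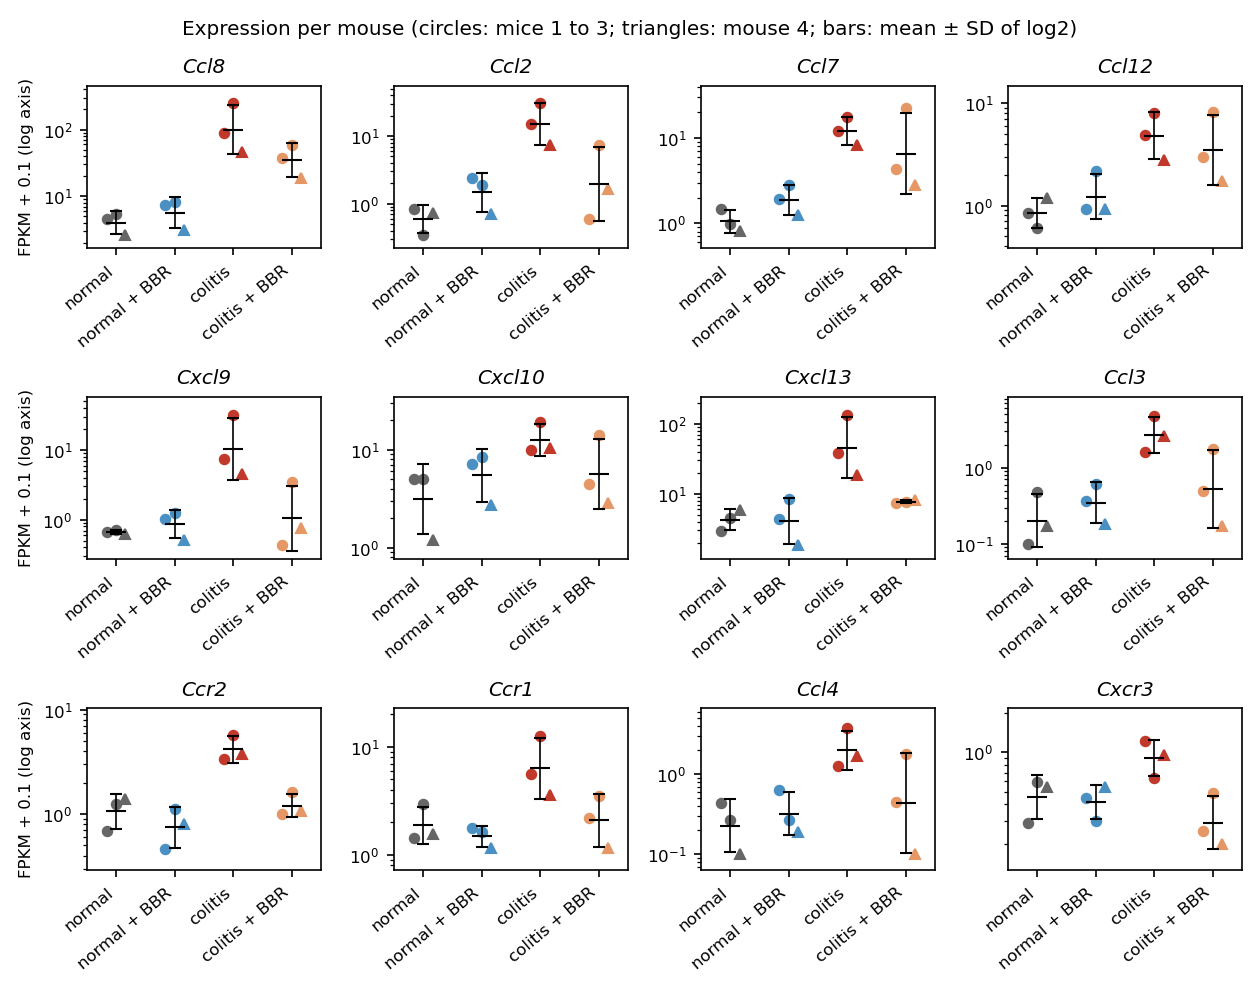
FPKM + 0.1 on a log axis for 12 genes, with 1 point per mouse in each of the 4 groups, triangles for the mice numbered 4, and bars for the mean ± SD on the log2 scale (n = 3). For all 12 genes the 3 colitis mice lie above the 3 normal mice, and for Ccl2, Cxcl9, Cxcl13, Ccr2, Ccr1 and Cxcr3 they also lie above the 3 colitis mice receiving BBR.

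Ccr1 and the ligands Ccl3, Ccl4, Ccl5, Ccl6 and Ccl9, 6 genes in all, had a higher mean in colitis and 4 of them passed the unadjusted limit, but none the adjusted one. Ccl3, an inflammatory ligand of Ccr1, was at 0, 0.38 and 0.07 FPKM in normal mice and 1.49, 4.6 and 2.47 FPKM in colitis mice, a log2 fold change of 3.73 (SE 0.84, limma adjusted p = 0.0581). Ccl4, an inflammatory ligand close to Ccl3, was at 0.34, 0.17 and 0 FPKM in normal mice and 1.16, 3.64 and 1.58 FPKM in colitis mice, a log2 fold change of 3.13 (SE 0.94, limma adjusted p = 0.108). The normal values of both ligands lie under the worth of 3 reads on 800 bases in their mice, so the size of these fold changes depends on the pseudocount. With a term for the mice numbered 4 the adjusted limit was passed by Ccl3, Ccl4 and Ccr1, at limma adjusted p = 0.0208, 0.028 and 0.0276. Ccr1, found on monocytes and neutrophils, was at 1.34, 2.88 and 1.45 FPKM in normal mice and 5.52, 12.63 and 3.47 FPKM in colitis mice, a log2 fold change of 1.75 (SE 0.52, limma adjusted p = 0.108). Ccl9, a Ccr1 ligand, was at 2.36, 7.01 and 3.72 FPKM in normal mice and 7.58, 35.34 and 11.03 FPKM in colitis mice. These 4 genes did not overlap between the groups, whereas Ccl6 and Ccl5, a T cell product, did, with log2 fold changes of 0.01 and 0.70.

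Among the remaining roles Cxcl16 was the member above the normal mice without overlap. Cxcl16 is a transmembrane ligand whose receptor Cxcr6 marks resident T cells. It was at 11.64, 10.76 and 13.23 FPKM in normal mice and 25.95, 72.12 and 15.95 FPKM in colitis mice, a log2 fold change of 1.38 (SE 0.50, limma adjusted p = 0.158). Of the mucosal axis 6 of 8 members had a lower mean, with a median of -0.50, near the 73.7% lower and the median of -0.32 of all tested genes. Ccl25, an epithelial ligand that attracts Ccr9-bearing T cells to the gut, was at 2.68, 1.97 and 1.75 FPKM in normal mice and 1.03, 0.67 and 1.33 FPKM in colitis mice. Ccr10, the receptor of Ccl27 and Ccl28, was at 0.54, 0.86 and 1.32 FPKM in normal mice and 0.4, 0.21 and 0.53 FPKM in colitis mice. Their log2 fold changes of -1.03 (SE 0.35) and -1.05 (SE 0.43) passed the unadjusted limit only, and neither passed it under quantile normalization.

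In all, 15 members were higher and 4 lower in colitis without overlap of the groups, against 7.1% and 22.2% of all tested genes. The 15 were the 14 that passed the unadjusted limit upward and Cxcr3, and the 4 were Ccl25, Ccr10, Cx3cr1, the receptor of fractalkine on resident macrophages, and Cxcl14, an epithelial chemokine. The share of members higher without overlap was thus above the background, and the share lower was below it.

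Cell type markers differed between the same groups, where 73.7% of all tested genes had a lower mean. Of 9 monocyte and macrophage markers 8 had a higher mean in colitis with a median of 1.2 over the 9. The summed level of the 9 was 147.97 to 195.09 FPKM in normal mice and 221.02 to 690.47 FPKM in colitis mice. The lower one was Ly6c2, at -1.43 (SE 0.68), and Adgre1 and Csf1r hardly differed, at 0.15 and 0.03. All 7 granulocyte markers were higher, with sums of 0.29 to 1.5 FPKM and 44.35 to 493.03 FPKM. The 8 smooth muscle markers were all lower, with a median of -2.91 and sums of 1663.98 to 3142.79 FPKM in normal mice against 73.74 to 673.49 FPKM in colitis mice. All 5 endothelial markers were lower as well, with sums of 16.77 to 20.86 FPKM in normal and 4.38 to 10.95 FPKM in colitis mice, as were the 3 Hox genes of the distal bowel, with sums of 385.3 to 455.44 FPKM and 81.81 to 299.62 FPKM. Of the 7 T cell markers 6 had a higher mean in colitis, with a median of 0.41 and sums of 4.88 to 5.24 FPKM in normal mice and 5.73 to 10.56 FPKM in colitis mice. The part of these shifts in the chemokine values was not tested.

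Ccl8 kept its adjusted call in 4 of 6 fits that left out 1 mouse, with a highest adjusted p of 0.0555. Ccl2, Ccl7, Cxcl13 and Cxcl9 each kept theirs only without colitis mouse 4 and reached adjusted p-values of 0.136 to 0.165 in the limma fits without another mouse. The number of adjusted calls was 0 without normal mouse 1 or normal mouse 4, 1 without normal mouse 3, colitis mouse 1 or colitis mouse 2, and 5 without colitis mouse 4. Calls over all tested genes were 11, 16, 14, 14, 77 and 211 in the same order, against 165 with every mouse. Without colitis mouse 2 the median of the 44 genes was 0.12, against -0.24 over all tested genes, and 23 of them had a higher mean. With a term for the mice numbered 4 the calls were 11, adding Ccl3, Ccl4, Ccl12, Ccr1, Ccr2 and Cxcl10, but 1412 of all genes were then called. In mice numbered 1 to 3 alone the 5 calls were Ccl2, Ccl7, Ccl8, Ccl12 and Cxcl13, where 804 of all genes were called against 165 in the fit with every mouse. In the mice numbered 4 alone, 1 a group and so without a test, the colitis mouse exceeded the normal mouse by 4.12 log2 units for Ccl8, 3.35 for Ccl2, 3.34 for Ccl7, 2.86 for Cxcl9 and 1.64 for Cxcl13, whose difference in the fit was 3.42.

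Colitis mice receiving BBR were compared with colitis mice to ask which genes BBR affects in colitis. Of the 44 genes 32 had a lower mean in colitis mice receiving BBR and 12 a higher one, against 62% and 38% of all tested genes, and the receptors Ccr1, Ccr2, Ccr7, Cxcr3 and Cx3cr1 and the ligands Cxcl9, Cxcl13, Ccl2 and Cxcl12 were below the colitis mice in every mouse. No member passed the adjusted limit, and neither did any of the 15315 tested genes (0%). The smallest adjusted p of a member was 0.435. At an unadjusted P of at most 0.05, 15 members were lower and 1 higher, against 5.2% and 1.19% of all tested genes. The median log2 fold change of the members was -0.68 against -0.09 over all tested genes, and with quantile normalization or centring 29 members were lower in place of 32. The colitis mice are shared with the comparison above, so a high value in a colitis mouse enters both with opposite signs.

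Of the 13 receptors 10 had a lower mean, and 6 of them passed the unadjusted limit, where 62% of all tested genes had a lower mean and 5.2% were lower at that limit. Ccr2 was at 0.91, 1.51 and 0.97 FPKM in colitis mice receiving BBR against 3.24, 5.67 and 3.63 FPKM in colitis mice, a log2 fold change of -1.79 (SE 0.42). Cxcr3 was at 0.15, 0.39 and 0.1 FPKM against 1.11, 0.54 and 0.85 FPKM, a log2 fold change of -1.64 (SE 0.46). For both receptors no colitis mouse receiving BBR reached the lowest colitis mouse, and the limma adjusted p-values were 0.435 and 0.498. Ccr1 was at 2.12, 3.45 and 1.05 FPKM against 5.52, 12.63 and 3.47 FPKM, and its highest value of 3.45 FPKM was just under the lowest of 3.47 FPKM in colitis mice. Ccr7, the lymph node homing receptor of dendritic and T cells, was at 0, 0.46 and 0.2 FPKM against 0.61, 1.18 and 1 FPKM. Cx3cr1 was at 0.32, 0.6 and 0.84 FPKM against 1.29, 1.57 and 1.56 FPKM, a log2 fold change of -1.27 (SE 0.37), and here the colitis mice themselves lay below the normal mice.

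Among ligands the largest differences were those of Cxcl9, Ccl2 and Cxcl13. Cxcl9 was at 0.33, 3.4 and 0.66 FPKM in colitis mice receiving BBR, a log2 fold change of -3.30 (SE 0.80, limma adjusted p = 0.435). Ccl2 was at 0.5, 7.28 and 1.54 FPKM, a log2 fold change of -2.96 (SE 0.84, limma adjusted p = 0.51). Cxcl13 was at 7.34, 7.45 and 8.09 FPKM, a log2 fold change of -2.57 (SE 0.66, limma adjusted p = 0.486). In Cxcl13 the 3 mice lay close together, whereas in Cxcl9 and Ccl2 mouse 3 stood well above mice 2 and 4, and for Ccl2 its 7.28 FPKM lay just under the 7.32 FPKM of colitis mouse 4. Cxcl12 was at 9.48, 6.71 and 17.43 FPKM against 17.59, 55.78 and 20.92 FPKM, a log2 fold change of -1.39 (SE 0.42), and normal mice had 17.75 to 26.59 FPKM.

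All ligands of the monocyte axis had a lower mean, and no test compared them with each other. Ccl8 was at 37.3, 59.24 and 18.47 FPKM in colitis mice receiving BBR, overlapping the untreated colitis group, and its log2 fold change was -1.53 (SE 0.62). Ccl7 was at 4.2, 22.55 and 2.75 FPKM and Ccl12 at 2.87, 8.05 and 1.63 FPKM, with log2 fold changes of -0.88 (SE 0.65) and -0.47 (SE 0.59) and mouse 3 above every colitis mouse. Ccl3 and Ccl4 had log2 fold changes of -2.35 and -2.20 with overlapping groups. Ccl17, a ligand of Ccr4 made by dendritic cells, and Cxcl14 passed the unadjusted limit with overlap as well, at -1.53 and -1.55. For Ccl17 the values were 0.57, 1.1 and 0.46 FPKM against 2.62, 3.57 and 0.98 FPKM in colitis mice. Ccl25 was the member that passed it upward, at 1.48, 1.95 and 2.02 FPKM against 1.03, 0.67 and 1.33 FPKM, a log2 fold change of 0.82 (SE 0.35). In all, 10 members were lower and 1 higher without overlap, against 5.66% and 1.42% of all tested genes.

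**Figure D4:**
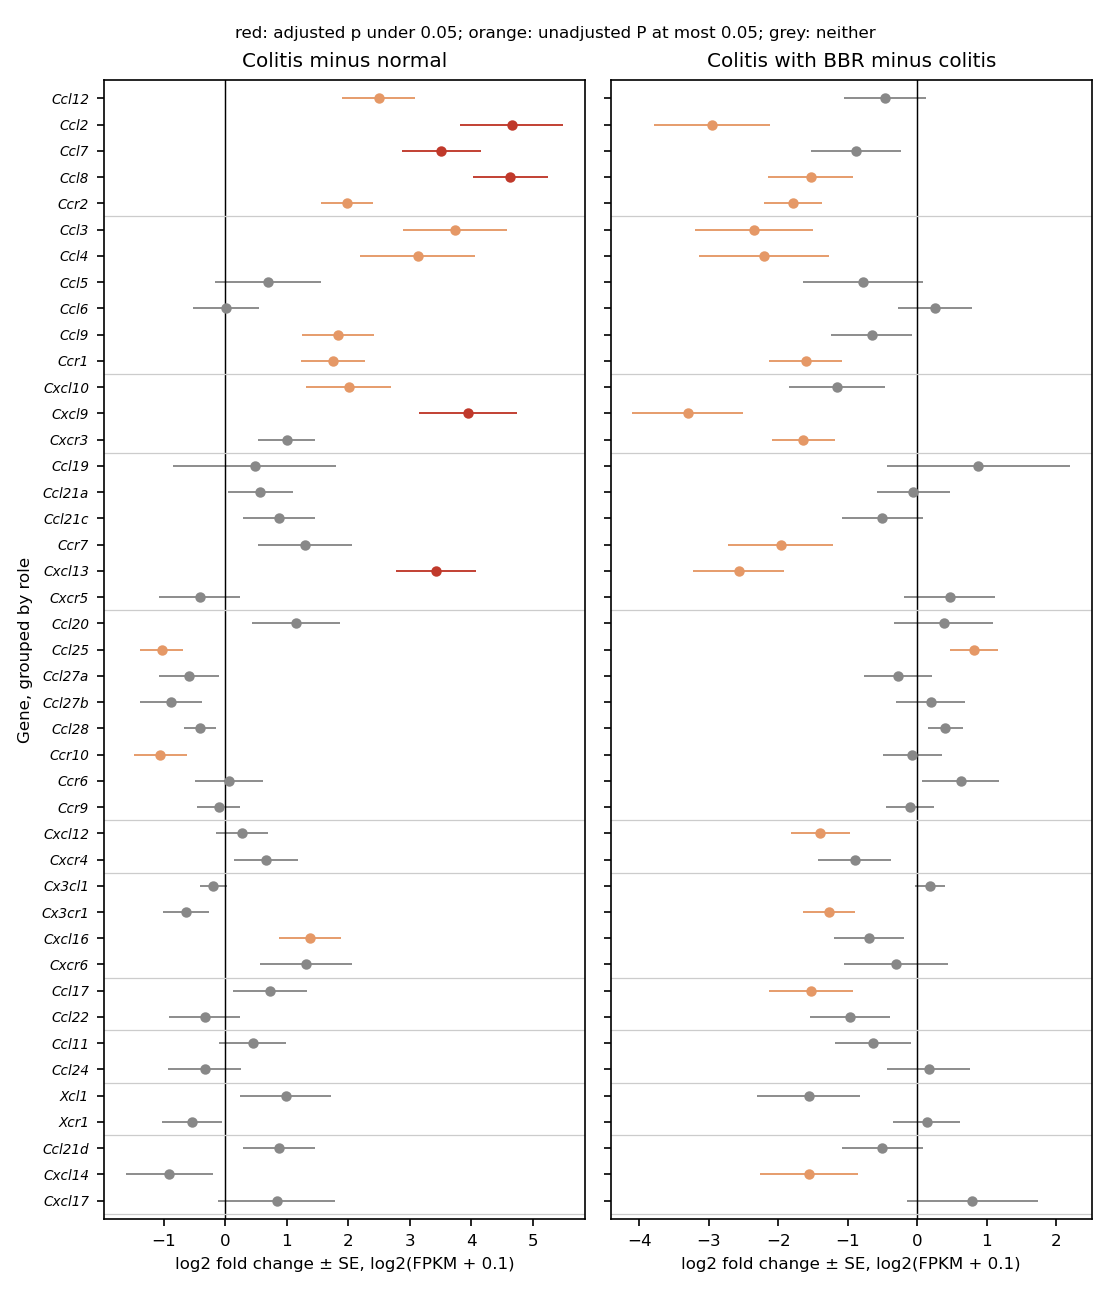
Log2 fold change ± SE from limma on log2(FPKM + 0.1) for 43 of the 44 genes, grouped by role, for colitis minus normal (left) and colitis with BBR minus colitis (right), with red for an adjusted p under 0.05, orange for an unadjusted P of at most 0.05 and grey for neither. The 5 red genes are all on the left panel, at 3.42 to 4.66, and the right panel has 15 orange genes, 14 of them below 0; both panels share the 3 colitis mice.

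Cell type markers differed here too, where 62% of all tested genes had a lower mean. All 9 monocyte and macrophage markers had a lower mean in colitis mice receiving BBR, with a median of -1.19 and a summed level of 118.06 to 249.2 FPKM against 221.02 to 690.47 FPKM in colitis mice. All 7 T cell markers were lower, with sums of 2.13 to 6.84 FPKM against 5.73 to 10.56 FPKM, and all 6 fibroblast markers, with sums of 166.2 to 253.65 FPKM against 177.27 to 696.17 FPKM. Of 7 granulocyte markers 6 were lower, with sums of 1.61 to 217.23 FPKM against 44.35 to 493.03 FPKM. All 5 dendritic cell markers were lower, with sums of 1.2 to 2.97 FPKM against 3.14 to 4.79 FPKM. Of 7 B and plasma cell markers 5 were lower, with sums of 54.1 to 102.94 FPKM against 78.82 to 156.28 FPKM. Their median of -0.14 was near the -0.09 of all tested genes. The 8 smooth muscle markers had higher means, but their sum was high in mouse 4 receiving BBR alone, at 3525.02 FPKM, and at 503.25 and 482.93 FPKM in mice 2 and 3, within the 73.74 to 673.49 FPKM of colitis mice. The same mouse had the granulocyte sum of 1.61 FPKM, where mice 2 and 3 had 217.23 and 196.63 FPKM. The part of these shifts in the receptor and ligand values was not tested. With a term for the mice numbered 4, 1 member was higher and 17 lower at the unadjusted limit, and in mice numbered 1 to 3 alone 1 and 11, with 0 adjusted calls in either fit. Of all 15315 tested genes 1515 and 1136 passed the unadjusted limit in these fits, against 978 in the fit with every mouse and no such term. Without colitis mouse 2 the members with an unadjusted P of at most 0.05 were 9, against 15 lower and 1 higher with every mouse. Of all tested genes 909 passed this limit without that mouse, against 978. In the same fit 26 of the 44 had a lower mean, and the median was -0.10 against -0.16 over all tested genes. Without colitis mouse 3 receiving BBR, 1 member, Cxcl9, passed the adjusted limit, but so did 58 of all tested genes, against 0 with every mouse. In the mice numbered 4 alone the colitis mouse receiving BBR was below the colitis mouse by 1.8 log2 units for Ccr2, 2.25 for Cxcr3, 2.59 for Cxcl9 and 1.17 for Cxcl13.

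Normal mice receiving BBR were compared with normal mice to ask which genes BBR affects without colitis. No member passed the adjusted limit (0% of all tested genes) and 1, Cx3cr1, passed the unadjusted one, against 1.36% of all tested genes. Cx3cr1 was at 1.06, 1.94 and 0.99 FPKM in normal mice receiving BBR and 1.84, 2.49 and 2.75 FPKM in normal mice, a log2 fold change of -0.82 (SE 0.37), and the groups overlapped. All 44 members overlapped between these groups, while 9.62% of all tested genes did not. Cx3cr1 missed the unadjusted limit without normal mouse 3 or 4 or without normal mouse 1 or 4 receiving BBR. Ccl2 had the largest difference, at 2.32, 1.77 and 0.6 FPKM in normal mice receiving BBR against 0.73, 0.25 and 0.63 FPKM, a log2 fold change of 1.3 (SE 0.84) that did not pass the unadjusted limit. The median over the members was 0.12 against -0.02 over all tested genes.

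Colitis mice receiving BBR were set beside normal mice receiving BBR to see what remained of the colitis difference under BBR. No member passed the adjusted limit, against 0.0392% of all tested genes, and at the unadjusted limit 5 were higher and 5 lower, against 2.37% and 17.3%. Without colitis mouse 4 receiving BBR 5 members passed the adjusted limit, but so did 2255 of all 15315 tested genes, a larger share, and without normal mouse 1 or 3 receiving BBR or colitis mouse 3 receiving BBR the unadjusted count fell to 5 or 6. Under quantile normalization or centring these counts were 7 and 1. Ccl8 had 18.47 to 59.24 FPKM in colitis mice receiving BBR and 2.96 to 8 FPKM in normal mice receiving BBR, a log2 fold change of 2.60 (SE 0.62, limma adjusted p = 0.191). With a term for the mice numbered 4 Ccl8 passed the adjusted limit, at limma adjusted p = 0.0203. Ccl7, Ccl9 and Cxcl17, a mucosal chemokine-like ligand, were also higher without overlap, which 2.26% of all tested genes were. Ccl12 and Ccl20, the ligand of Ccr6 made by inflamed epithelium, passed the unadjusted limit with overlap. Cxcl17 was at 0.69, 2.97 and 0.45 FPKM against 0.43, 0 and 0 FPKM, and Ccl20 at 18.71, 9.97 and 3.95 FPKM against 2.08, 6.38 and 1.97 FPKM. For Cxcl17 the groups nearly met at 0.45 and 0.43 FPKM, and with values of 0 the size of its difference depends on the pseudocount. Lower without overlap were Cxcl14, Ccr10, Cx3cr1, Ccl27a and Cxcl12, against 18% of all tested genes. Cxcl14 was at 0.17, 1.33 and 2.55 FPKM against 4.25, 5.1 and 5.57 FPKM, a log2 fold change of -2.32 (SE 0.71), and Ccl27a at 4.41, 1.96 and 2.83 FPKM against 7.54, 6.79 and 6.28 FPKM. All 7 granulocyte markers had a higher mean here, with sums of 1.61 to 217.23 FPKM against 0.36 to 1.27 FPKM. Of the smooth muscle markers 8 of 8, of the fibroblast markers 6 of 6, of the T cell markers 7 of 7 and of the dendritic cell markers 5 of 5 had a lower mean here, where the median of all tested genes was -0.4 and that of the T cell markers -0.48. So did 5 of 5 endothelial markers, with sums of 3.62 to 11.77 FPKM against 16.57 to 18 FPKM, and 5 of 7 B and plasma cell markers, with sums of 54.1 to 102.94 FPKM against 225.43 to 370.06 FPKM. Of the 9 monocyte and macrophage markers 4 had a higher and 5 a lower mean. The part of these shifts in the chemokine values was not tested.

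The difference between the effect of BBR in colitis mice and in normal mice was tested as an interaction. No member passed the adjusted limit (0% of all tested genes). At the unadjusted limit 8 members passed, all with a more negative difference in colitis, against 2.42% of all tested genes in either direction and 1.72% lower. Among them were Ccl2 at -4.26 (SE 1.18), Cxcl9 at -3.66 (SE 1.13), Ccl3 at -3.13 (SE 1.19), Cxcl13 at -2.50 (SE 0.93), Ccl8 at -2.03 (SE 0.87), Ccl17 at -1.96 and Cxcr3 at -1.52, on the log2(FPKM + 0.1) scale. The median over the 44 genes was -0.72 against -0.08 over all tested genes. The interaction uses all 12 mice, colitis mouse 2 included, and without that mouse 5 members passed the unadjusted limit. Of these 5, 1 was more positive and 4 more negative, while 378 of all tested genes passed, against 371 with every mouse. The count was 3 without normal mouse 3 receiving BBR, 4, 13 and 5 without colitis mouse 2, 3 or 4 receiving BBR, and 4 with quantile normalization. Of all tested genes 283, 264, 889, 549 and 457 passed the limit in these fits, in the same order, against 371.

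Other genes of chemokine signalling were counted from lists. Of 7 atypical or related receptors and platelet chemokines, none passed the adjusted limit in colitis against normal, and at the unadjusted limit Ackr4, a scavenger of Ccl19, Ccl21 and Ccl25, was lower at -2.30 (SE 0.54) and Ccrl2, which presents chemerin, higher at 0.72 (SE 0.30). In colitis mice receiving BBR against colitis mice the same genes had log2 fold changes of 1.48 and -0.84, each past the unadjusted limit only. Of 30 genes of receptor signalling and desensitization 2 were higher and 2 lower at the unadjusted limit in colitis, where 5.56% of all tested genes were higher and 15.9% lower, and none passed the adjusted one. The higher ones were the Src-family kinases Fgr and Lyn, at 1.23 and 0.52, and the lower ones Arrb1, a beta-arrestin, and Prkcd, a protein kinase C, at -0.67 and -0.60. With BBR in colitis 3 of the 30, Gng2, Arrb2 and Fgr, were lower at the unadjusted limit and none higher, against 5.2% and 1.19% of all tested genes. Of 5 proteases that trim or release chemokines, Adam10 was higher in colitis at 0.63 and Mmp2 lower with BBR in colitis at -1.54, both at the unadjusted limit only.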

How the data were processed

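The authors sequenced RNA from 12 mice, and the sample labels place 3 of them in every one of the 4 groups. By the methods the authors filtered reads with SOAPnuke, aligned them with Bowtie2 (2.2.5) and estimated expression with RSEM (1.2.12), on mm9 by the labels. The labels name an Illumina TruSeq RNA kit and the methods an rRNA depletion kit with sequencing on a BGI platform. The deposited values are read here as FPKM from their behaviour, since no header names the unit and TPM cannot be told apart from it. Nothing says whether the mice were littermates or housed together.

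Genes with a mean of at least 0.1 FPKM over the 12 mice, 15315 in all, were tested as log2(FPKM + 0.1) with limma 3.58.1 (empirical Bayes with a trend) in R 4.3.3, over all 4 groups with no block, with Benjamini-Hochberg adjustment over all of them and a limit of 0.05. The unadjusted limit of P at most 0.05 is that of the study. The fit was tested on simulated data. Values, figures and promoter searches used Python 3.11.15, pandas 2.3.3, NumPy 2.4.6 and matplotlib 3.10.9. Promoters are from RefSeq on GRCm38.p6, another build than that of the expression values, and RefSeq gave names and gene order only otherwise.

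The members, roles and marker lists were chosen with earlier results of these data known. Any member could be named, and values per mouse were given for most of those past either limit or in a ligand and receptor pair. The values of 1 member are counted in the totals and not reported here. Genes named from the signalling lists are those past the unadjusted limit.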

Additional observations from a re-analysis of the deposited data

How the results depend on the processing

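Results were recomputed with pseudocounts of 0.01 and 1, with no filter and with a minimum mean of 1 FPKM, after quantile normalization or median centring, without the trend, with only the compared groups in the fit, with a term for the replicate number, with a term for the mice numbered 4, without these 4 mice, and leaving out each mouse. None of them reversed a member that passed either limit. The medians of the members kept their sign in colitis against normal, with BBR in colitis and for the interaction, but not in colitis with BBR against normal with BBR, where 0.12 became -0.17 with the replicate block, nor with BBR in normal mice, where leaving out 1 mouse gave -0.05 at the lowest.

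Adjusted calls in colitis against normal were 10 with the replicate block, 11 with the term for the mice numbered 4 and 9 with the compared groups alone, against 5 in the fit reported, while calls over all genes were 734, 1412 and 488 against 165. With BBR in colitis 10 members of the 28 left by a filter at 1 FPKM passed the unadjusted limit, against 16 of 44, where 719 of all genes passed it, against 978. With BBR in normal mice the count was 0 with a pseudocount of 0.01, 0 with a filter at 1 FPKM, 0 without a filter and 2 in mice numbered 1 to 3 alone, against 1. Over all genes it was 181, 142, 298 and 276 in these fits, against 208. In colitis with BBR against normal with BBR adjusted calls were 1 with the term for the mice numbered 4 and 3 in mice numbered 1 to 3 alone (Ccl8 higher, Ccl17 and Ccr10 lower), against 0, while 268 and 2302 of all genes were called. The interaction had 5 members at the unadjusted limit with a filter at 1 FPKM, 4 with quantile normalization, 5 with centring, 15 with the replicate block and 13 with the term for the mice numbered 4, against 8. Of all genes 248, 457, 357, 779 and 671 passed it in these fits, in the same order, against 371. With centring 1 of the 5 members was more positive.

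Leaving out 1 mouse gave 12 to 19 members at the unadjusted limit, 0 to 5 adjusted calls and a median of 0.12 to 1.23 in colitis against normal, and 9 to 19, 0 to 1 and -1.08 to -0.10 with BBR in colitis. The same 3 values were 0 to 1, 0 to 0 and -0.05 to 0.30 with BBR in normal mice, 5 to 11, 0 to 5 and -0.25 to 0.30 in colitis with BBR against normal with BBR, and 3 to 13, 0 to 0 and -1.19 to -0.38 for the interaction.

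The replicate numbers of the labels were not taken to pair the mice, since nothing in the labels says what they mark and colitis mouse 2 and colitis mouse 2 receiving BBR correlated at 0.08, under the limit of 0.1 set for every pair. Mice with the same number in different groups correlated in their deviations from the group means at a mean r of 0.34 over 13 pairs, 0.08 to 0.75, and at -0.1 over 41 pairs with different numbers. Deviations within a group cancel out, so these means are tied to each other and -0.1 is no independent baseline. The pairs of mice numbered 4 had a mean of 0.5 and the others 0.21. In colitis against normal the replicate block kept the 5 calls and added Ccl3, Ccl12, Ccr1, Ccr2 and Cxcl10, and it gave no adjusted call in the other comparisons. Depth limits the values of Ccl3, Ccl4 and Ccl19 in normal mice, most of which lie under the worth of 3 reads on 800 bases. The value of Ccl2 in normal mouse 3 lies under it too, and for shorter transcripts such as that of Ccl12 the level is higher. The groups hold 3 mice each, and colitis mouse 2 was the highest of its group for 35 of 44 members.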

Other observations

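The mice numbered 4 differed from the others by transcript length. Among genes with a mean of at least 1 FPKM, the median log2 difference between the mouse numbered 4 and the others of its group, averaged over the groups, was -1.08 for 212 genes whose longest transcript is at most 700 bases, -0.41 for 836 genes of 700 to 1200 bases, 0.05 for 3353 genes of 1200 to 2500 bases and 0.29 for 7234 longer genes. The low values of the mice numbered 4 fell best on steps of whole reads when 25 to 100 bases were subtracted from the transcript length, and those of the others with 225 to 325 bases. The cause was not tested.

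Log2 fold changes in colitis against normal differed within runs of neighbouring genes, and no test compared the neighbours. In the run Ccl2, Ccl7, Ccl11, Ccl12 and Ccl8 on chromosome 11 all were positive, at 4.66, 3.51, 0.45, 2.5 and 4.63. Cxcl9 and Cxcl10 on chromosome 5 were both positive, at 3.94 and 2.01. In the run Ccl5, Ccl9, Ccl6, Ccl3 and Ccl4 on chromosome 11 the log2 fold changes in colitis against normal were 0.70, 1.83, 0.01, 3.73 and 3.13 in that order. The receptor run on chromosome 9 had 1.75 for Ccr1, 1.98 for Ccr2 and 1.31 for Cxcr6 beside -0.11 for Ccr9 and -0.54 for Xcr1. The means of Ccr9 and Xcr1 over the 12 mice were low, at 0.18 and 0.1767 FPKM. Normal mouse 3 receiving BBR was the highest of its group for 28 of 44 members, against 44.2% of all tested genes.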
